A study of Mus musculus with 12 samples.

Results

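The 78 genes described here carry the names of mitochondrial ribosomal proteins and were taken by symbol, as every symbol made of Mrpl or Mrps, a number and at most 1 further letter, out of 24493 symbols in the expression table. Of these genes 51 encode proteins of the large subunit, 26 of the small subunit and 1, Mrps36, of neither, and ribosomal proteins with other names, such as Dap3, are outside the set. All 78 reached a TPM (a transcript's share of its library, corrected for transcript length and scaled to a fixed total) of at least 1 in at least 3 libraries, the filter on low values that left 13662 genes to be tested. RNA was sequenced from mouse pancreatic tumour cells named 6649c2, in 12 libraries. The 4 genotypes were WT, EgfrKO, Klf5KO and Smad4KO, with 3 libraries each. The cells of all 4 groups were grown as subcutaneous tumours and sorted out of them, the strain is given as C57BL/6, and the sources used here give neither the ages of the mice nor the sorting gate. The labels do not say how the genes were knocked out or whether a knockout is 1 clone, so differences between clones and effects of the targeted gene cannot be told apart, and, as the origin of the replicates is not stated either, the p-values speak only of the variation among these libraries, part of which may be technical.

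Mitochondria carry their own ribosome, which translates the few membrane proteins of the respiratory chain that are encoded in mitochondrial DNA. Its ribosomal RNAs come from mitochondrial DNA, whereas all of its proteins are encoded in the nucleus, made in the cytosol and imported. Many of the proteins descend from bacterial ribosomal proteins, and the others were added in the mitochondrial lineage. Promoters of nuclear genes for mitochondrial proteins are known for sites of NRF1, of the ETS factor GABP and of YY1, and Myc is known to raise ribosome and mitochondrial genes in many tumours. The protein genes of mitochondrial DNA were looked for and no symbol of theirs is in the table used here.

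The promoter sequences below belong to members picked for display, which do not include those with the largest rises in EgfrKO or Smad4KO. Mrpl16, among the largest rises in Klf5KO as deposited, is also left out, and its promoter window held none of the 5 motifs searched. Mrpl12, named for its known role, was higher in EgfrKO and Smad4KO. Mrpl52, Mrpl57 and Mrpl30 are the members with the largest falls in Klf5KO, and Mrps27 and Mrpl37 were higher in Klf5KO in the deposited values. The sequences are read from the RefSeq annotation of GRCm38.p6 and run 5′ to 3′ on the strand of the gene, as the 100 bases before a RefSeq start. Matches outside these bases are not shown, such as those after the start for YY1 in Mrps27 and Mrpl37 and for ETS factors in Mrpl52 and Mrpl57. Capitals mark a match to 1 motif, searched on both strands: GCGC, any 1 base and TGCGC for NRF1 in Mrpl12, Mrpl30 and, as its reverse complement, Mrpl57, CCGGAAG for ETS factors and GABP (present as its reverse complement) in Mrpl52 and Mrps27, and CCAAT (also as its reverse complement) in Mrpl37. They lie at chr11:120484537-120484636 (Mrpl12, plus strand), chr14:54426809-54426908 (Mrpl52, plus strand), chr14:57826139-57826238 (Mrpl57, plus strand), chr1:37890377-37890476 (Mrpl30, plus strand), chr13:99344686-99344785 (Mrps27, plus strand) and chr4:107066867-107066966 (Mrpl37, minus strand).
Mrpl12: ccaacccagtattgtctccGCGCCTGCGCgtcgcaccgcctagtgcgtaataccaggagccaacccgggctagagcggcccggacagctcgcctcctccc
Mrpl52: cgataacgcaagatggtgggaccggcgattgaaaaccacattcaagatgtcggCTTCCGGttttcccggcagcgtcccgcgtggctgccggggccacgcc
Mrpl57: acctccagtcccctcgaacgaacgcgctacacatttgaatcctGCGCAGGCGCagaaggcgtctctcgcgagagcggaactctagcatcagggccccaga
Mrpl30: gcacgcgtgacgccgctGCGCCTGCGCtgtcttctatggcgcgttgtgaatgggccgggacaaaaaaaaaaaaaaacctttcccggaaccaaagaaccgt
Mrps27: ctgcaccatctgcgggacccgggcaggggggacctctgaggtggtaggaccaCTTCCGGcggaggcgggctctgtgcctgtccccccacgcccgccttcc
Mrpl37: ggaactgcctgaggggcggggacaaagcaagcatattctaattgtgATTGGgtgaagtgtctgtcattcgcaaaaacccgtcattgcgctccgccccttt

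Over the members as a whole, 69 of the 78 genes matched a RefSeq promoter window of 250 bases before to 50 bases after a start, in 75 windows. The ETS motif CCGGAAG was in 34.7% of the members' windows, against 16.9% of windows of all genes tested and 8.9% of all windows. The NRF1 motif was in 17.3% of the members' windows, against 9.4% and 4.6%. The YY1 motif AAGATGGCG was in 10.7%, against 2.9% and 1.4%. The Myc E-box CACGTG, at 9.3% against 9.6% of the windows of genes tested, and CCAAT, at 40.0% against 37.9%, were about as common in the members as in other genes tested. A match to these letters describes the sequence and does not show that a factor binds there.

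The targeted genes and cell type markers were checked first. Egfr was at 3.78 to 5.16 TPM in EgfrKO against 12.3 to 13.96 in WT. It was also below every WT library in Klf5KO (5.45 to 8.35) and Smad4KO (6.35 to 10.03). Smad4 was at 28.9 to 33.4 in Smad4KO against 70.9 to 79.8 in WT. Klf5, however, was at 87.8 to 100.5 in the libraries labelled Klf5KO against 97.1 to 130.3 in WT. RNA level thus does not separate that label from WT, and whether the protein was lost was not measured here. Most of 9 epithelial markers, though not all, had means of at least 1 TPM in each group. The summed TPM of the 9 was 5460 to 5930 in WT, 7370 to 7870 in EgfrKO, 4600 to 5130 in Klf5KO and 8040 to 9010 in Smad4KO. Cldn7 in WT and EgfrKO, Cldn4 in EgfrKO and Smad4KO, and Epcam, Cldn4 and Cldn7 in Klf5KO had means under 1 TPM. Markers of cells that a sort can carry over also differed: 10 fibroblast markers summed to 59.4 to 150 TPM in WT, 143 to 154 in EgfrKO, 342 to 712 in Klf5KO and 61.1 to 90.2 in Smad4KO, and 8 macrophage markers to 733 to 1460, 1230 to 1330, 1040 to 1670 and 182 to 804. Leukocyte markers, 7 in number, summed to 180 to 267, 302 to 314, 276 to 436 and 74.2 to 180 in the same order, and the 7 T and NK cell markers in the table to 2.46 to 6.02, 10.2 to 13.4, 12.7 to 18.7 and 7.87 to 12.1. Endothelial markers, 5 in number, summed to 2.38 to 3.45, 6.89 to 9.36, 12.2 to 15.4 and 2.49 to 3.39 in the same order. None of the markers of these 6 cell types was listed at 0 in all libraries of a genotype, but several had means under 1 TPM. Beside the epithelial ones above, these were 6 of the 7 T and NK cell markers in WT, and Kdr, Tie1, Emcn and Fap in every genotype. Pdgfra was too in all genotypes but Klf5KO, Cd3g in EgfrKO, and Cd3e, Cd3g and Cdh5 in Smad4KO. Of 3 erythroid markers 1 was at 0 in all EgfrKO libraries. The part of these cell types in the members' values was not tested. In bulk samples such as these, fewer cells of a type and less RNA per cell cannot be told apart.

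Levels of the 78 genes spanned a wide range. Mean TPM over the 12 libraries ran from 8.75 for Mrpl17 to 515.9 for Mrpl52, with a median over the members of 55.9. Of the members, 13 were at 100 TPM or more and 9 were under 20. The 5 most abundant were Mrpl52, Mrpl33, Mrps21, Mrpl24 and Mrpl23, which together made up 19.3% to 25.4% of the members' TPM in a library. Mrpl52 is a protein of the large subunit found only in mitochondrial ribosomes, Mrpl33, Mrpl24 and Mrpl23 are large subunit proteins with bacterial relatives, and Mrps21 is one of the small subunit. The lowest 3 were Mrpl19, Mrpl41 and Mrpl17. Replicates lay close together: the median over members of the coefficient of variation between 3 libraries was 6.42% in WT, 5.36% in EgfrKO, 6.25% in Klf5KO and 5.17% in Smad4KO.

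The members' summed TPM was 5153, 4950 and 4806 in WT, 6158, 6041 and 5827 in EgfrKO, 4705, 5173 and 4986 in Klf5KO and 5954, 5641 and 5918 in Smad4KO. Every EgfrKO and Smad4KO library was above every WT library, and the Klf5KO libraries overlapped WT. As means the sums were 4970 ± 174 (SD, n = 3) in WT, 6009 ± 168 in EgfrKO, 4955 ± 236 in Klf5KO and 5838 ± 171 in Smad4KO, 1.21, 0.997 and 1.17 times WT for the 3 knockouts. TPM are shares, so a gene group as large as the cytosolic ribosomal proteins can move all others: their genes took 20.3% to 20.7% of the TPM in WT, 19.4% to 20% in EgfrKO, 12.9% to 14.4% in Klf5KO and 18.1% to 19.7% in Smad4KO. The median change of all tested genes against WT was 0.14 in EgfrKO, 0.31 in Klf5KO and 0.10 in Smad4KO on the log2(TPM + 1) scale. A scaling that divides each library by its median ratio to the average library brought these medians to 0.00, -0.01 and 0.00. After this median-of-ratios scaling the members' sum was 5706, 5367 and 5396 in WT, 5886, 5932 and 6096 in EgfrKO, 3868, 4568 and 4391 in Klf5KO and 6046, 5628 and 6295 in Smad4KO. The Klf5KO libraries then lay below all WT libraries (0.779 times WT as a ratio of means), EgfrKO stayed above WT (1.09 times), and Smad4KO (1.09 times) overlapped WT through 1 library on each side. No test was made on these sums.

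**Figure D1:**
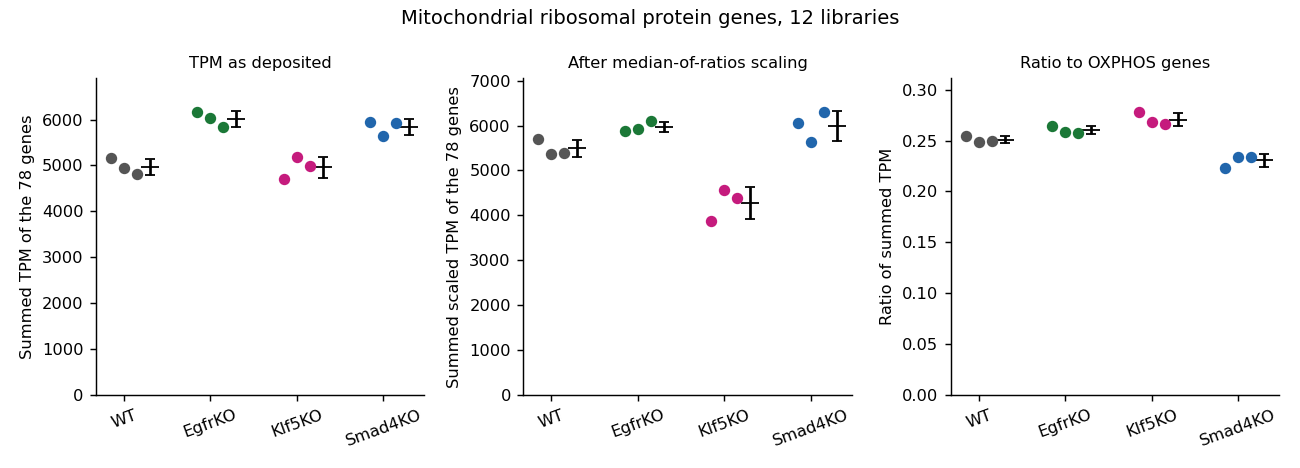
Summed TPM of the 78 genes in each library as deposited (left), after median-of-ratios scaling (centre) and as a ratio to the summed TPM of nuclear oxidative phosphorylation (OXPHOS) genes (right), with 3 libraries a genotype as points and the mean ± SD as bars. Klf5KO overlaps WT in the deposited values (4705 to 5173 against 4806 to 5153) and lies below it after scaling (3868 to 4568 against 5367 to 5706), while its ratio to OXPHOS genes is above WT.

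In EgfrKO most mitochondrial ribosomal protein genes were higher than in WT. Of 78 members, 56 rose and 0 fell (limma, adjusted p under 0.05 over all genes tested), where 31.3% of all genes tested rose and 12% fell. The count of members that fell was also 0 at an unadjusted p under 0.05. The members' median change was 0.30 on the log2(TPM + 1) scale, beside 0.14 for all genes tested. The groups did not overlap for 58 members higher in EgfrKO and 2 lower, against 40.1% and 15.9% of all genes. After median-of-ratios scaling 23 members rose and 6 fell (18% and 22.2% of all genes), with a median of 0.15. All 23 that rose after scaling had also risen in the deposited values, and 33 calls were lost by scaling. Leaving out any single WT or EgfrKO library turned the 6 falls after scaling into 1 to 3.

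The largest rises in EgfrKO were in both subunits. Mrps28, a small subunit protein, measured 42.5, 41.4 and 52.7 TPM in WT and 65.4, 82.6 and 69.1 in EgfrKO. Mrpl54, a mitochondria-specific protein of the large subunit, measured 81.7, 76.6 and 74.7 in WT and 126.4, 120.1 and 122.6 in EgfrKO. In both genes each EgfrKO library was above every WT library. Mrps28 rose by 0.66 ± 0.104 (SE, adjusted p = 0.000464) and Mrpl54 by 0.66 ± 0.064 (adjusted p = 1.49e-05). After scaling their rises were 0.51 (adjusted p = 0.00581) and 0.51 (adjusted p = 0.000427).

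Mrpl42, another mitochondria-specific protein of the large subunit, measured 65.3, 73.7 and 69.3 TPM in WT and 104.9, 109.3 and 103.7 in EgfrKO. Its rise of 0.60 ± 0.056 had the smallest adjusted p of the named members in EgfrKO (9.6e-06), and it held after scaling (0.45, adjusted p = 0.000323). Mrps10, whose bacterial relative sits in the head of the small subunit, went from 48.7 ± 5.87 to 74.0 ± 5.61 TPM (SD, n = 3, a rise of 0.60, adjusted p = 0.000234). Mrpl55, a large subunit protein, went from 23.4 ± 1.39 to 35.2 ± 3.29 TPM (a rise of 0.57, adjusted p = 0.000199). Neither gene had overlapping groups, and both kept their rise after scaling (0.45 and 0.42). Mrpl12, the stalk protein that recruits translation factors to the ribosome, measured 119.5, 111.4 and 104.1 TPM in WT and 164.9, 162.7 and 161.3 in EgfrKO. The 3 EgfrKO libraries lay close together and above WT, with a rise of 0.54 ± 0.074 (adjusted p = 0.000156) as deposited and 0.39 (adjusted p = 0.00276) after scaling.

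The members with the lowest values in EgfrKO relative to WT were Mrps6, at -0.16 (adjusted p = 0.156), and Mrps30, at -0.15 (adjusted p = 0.106), and neither passed the test as deposited. Mrps6 is a small subunit protein with a bacterial relative, and Mrps30, in spite of its symbol, is a protein of the large subunit. Mrps30 measured 47.4, 41.9 and 43.9 TPM in WT and 38.9, 39.9 and 40.7 in EgfrKO. All 3 EgfrKO libraries were below WT, and after scaling the fall of 0.30 passed the test (adjusted p = 0.0207). Mrps6 fell by 0.31 after scaling (adjusted p = 0.0193).

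In Smad4KO the picture over the members was close in size to that in EgfrKO, with which it shares the WT libraries. Against WT 55 members rose and 1 fell, where 32.2% of all genes tested rose and 17.4% fell. The members' median was 0.29, beside 0.10 for all genes. The groups did not overlap for 60 members higher and 3 lower (38.3% and 20.8% of all genes). After scaling 29 members rose and 1 fell (25.1% and 24.7% of all genes), with a median of 0.18, and without Smad4KO replicate 3 the count of rises was 19.

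Mrpl47, a large subunit protein near the exit of the peptide tunnel, measured 32.8, 21.97 and 21.4 TPM in WT and 44.4, 39.2 and 38.8 in Smad4KO. It had the largest rise, 0.69 ± 0.15 (adjusted p = 0.00272), with 1 WT library well above the other 2 but below all of Smad4KO. Mrps2, of the small subunit, measured 15.1, 15.4 and 14.6 in WT and 22.7, 23.8 and 20.7 in Smad4KO. Its rise of 0.54 ± 0.067 (adjusted p = 4.08e-05) remained 0.44 after scaling (adjusted p = 7.36e-05). Mrpl41, among the members of lowest level, went from 7.43 ± 0.207 to 10.9 ± 0.67 TPM (a rise of 0.49, adjusted p = 0.00035). Mrpl42 went from 69.4 ± 4.18 to 97.7 ± 4.85 TPM (a rise of 0.49, adjusted p = 2.33e-05). Both were above WT in all 3 libraries and stayed so in the test after scaling (0.40 and 0.38). Mrpl46 rose by 0.49 (adjusted p = 0.0217) as deposited, and after scaling its value of 0.39 missed the threshold (adjusted p = 0.076).

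Mrps6 was the exception in Smad4KO. It measured 69.9, 79.3 and 78.1 TPM in WT and 61.0, 53.8 and 49.1 in Smad4KO. No library overlapped, and the fall of 0.47 ± 0.087 (adjusted p = 0.000911) became 0.57 after scaling (adjusted p = 0.000341). Its values in Klf5KO, 70.1, 84.8 and 74.0, were spread around those of WT.

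In Klf5KO the direction of the members depended on the scale. In the deposited TPM 22 members rose and 8 fell against WT, where 55.2% of all genes tested rose and 11.1% fell. The members' median change was 0.09, beside 0.31 for all genes. After median-of-ratios scaling 0 rose and 44 fell (24.6% and 27.5% of all genes), with a median of -0.26, and the count that rose was also 0 at an unadjusted p under 0.05. On either scale the members' median was below that of all genes, by 0.21 as deposited and by 0.24 after scaling. All 22 deposited rises were lost on scaling, all 8 falls kept their call, and 36 members were called lower after scaling alone. Without WT replicate 1 the 44 falls became 29. With cytosolic ribosomal protein genes left out and TPM rescaled, 12 members rose, 14 fell and the median was -0.022, where 6065 of all 13580 genes then tested rose, 1904 fell and their median was 0.21. No member was called in opposite directions by the 2 scales. The groups did not overlap for 26 members higher and 8 lower as deposited, against 57.1% and 11.9% of all genes.

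**Figure D2:**
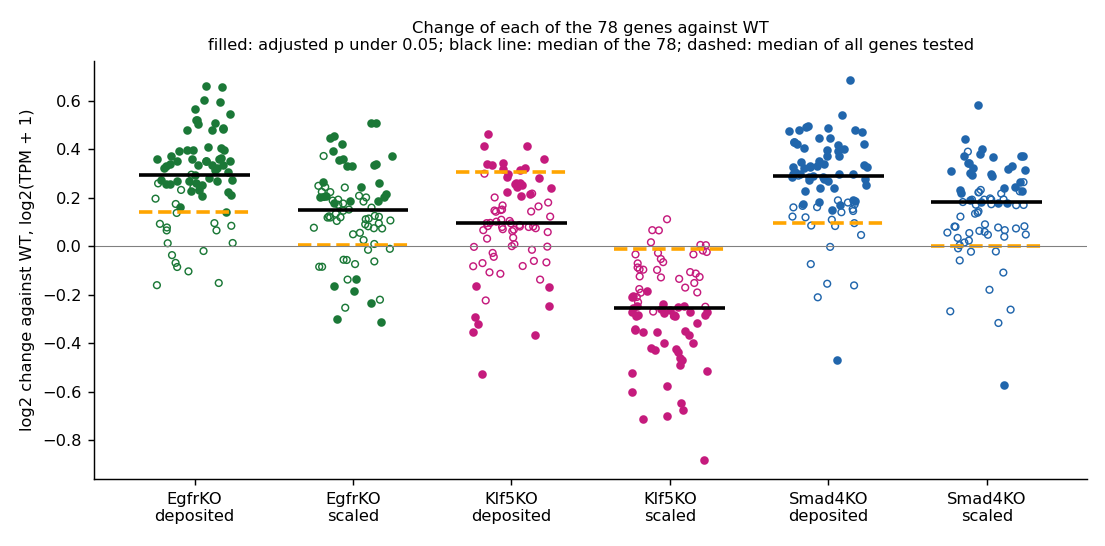
Change of each of the 78 genes against WT on the log2(TPM + 1) scale for the 3 knockouts, as deposited and after median-of-ratios scaling; filled points passed the test, the black line is the members' median and the dashed line that of all genes tested. The members' median lies above that of all genes in EgfrKO and Smad4KO and below it in Klf5KO on both scales, at 0.09 against 0.31 as deposited and -0.26 against -0.01 after scaling.

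The falls in Klf5KO that held on both scales included the most abundant member. Mrpl52 (chromosome 14, 54426909 to 54429750) measured 556, 514 and 489 TPM in WT, 627, 604 and 568 in EgfrKO, 327, 379 and 377 in Klf5KO and 616, 533 and 603 in Smad4KO. Every Klf5KO library was below every library of the other genotypes. Its fall against WT was 0.53 ± 0.076 (adjusted p = 9.34e-05), and 0.88 after scaling (adjusted p = 1.67e-05).

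Mrpl57 (chromosome 14, 57826228 to 57829087), a small mitochondria-specific protein of the large subunit, measured 15.6, 16.3 and 16.7 TPM in WT and 11.7, 12.6 and 12.7 in Klf5KO. Mrpl30 (chromosome 1, 37890477 to 37898338), of the large subunit, measured 120.7, 123.3 and 122.7 in WT and 95.7, 101.0 and 89.4 in Klf5KO. Mrps16 (chromosome 14, 20391222 to 20393634), a small subunit protein in which inherited mutations cause a respiratory chain disease, measured 112.2, 109.1 and 96.3 in WT and 83.0, 82.2 and 87.8 in Klf5KO. In none of these genes did the Klf5KO libraries reach WT. Their falls were 0.37 (adjusted p = 0.00112), 0.36 (adjusted p = 7.51e-05) and 0.32 (adjusted p = 0.00122) in that order, and 0.70, 0.71 and 0.68 after scaling. Mrps21 fell from 224.7 ± 8.76 to 184.1 ± 21.9 TPM, by 0.29 (adjusted p = 0.00673). Mrpl33 is a case where 1 library weighs: it measured 161.8, 231.7 and 194.3 in Klf5KO against 221.0 to 237.1 in WT, its groups overlapped, and its fall of 0.24 was near the threshold (adjusted p = 0.049). After scaling it fell by 0.60 (adjusted p = 0.00244) and the groups did not overlap.

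The largest rises in Klf5KO as deposited were in Mrpl37, Mrpl16, Mrps27, Mrpl38 and Mrpl19. Mrpl37 (chromosome 4, 107055874 to 107066866), a mitochondria-specific protein of the large subunit, measured 38.0, 37.7 and 32.8 TPM in WT and 56.4, 47.8 and 46.6 in Klf5KO. Mrps27 (chromosome 13, 99344767 to 99415562), a small subunit protein of the pentatricopeptide repeat family, whose members bind RNA, measured 27.1, 26.0 and 23.8 in WT and 34.4, 34.0 and 34.98 in Klf5KO. Both were above WT in every library, by 0.46 ± 0.085 (adjusted p = 0.000568) and 0.41 ± 0.067 (adjusted p = 0.000215). After scaling these differences were 0.11 (adjusted p = 0.171) and 0.07 (adjusted p = 0.366) and did not pass. Mrpl16, a large subunit protein with a bacterial relative, went from 34.7 ± 5.02 to 46.3 ± 2.88 TPM (a rise of 0.41, adjusted p = 0.00659, and 0.06 after scaling, adjusted p = 0.654). Mrpl38 and Mrpl19 rose by 0.36 and 0.34 as deposited (adjusted p = 0.00271 and 0.00276), and after scaling their differences were 0.00 and 0.02 (adjusted p = 0.974 and 0.86). The median of all genes in the deposited values of this contrast was 0.31.

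**Figure D3:**
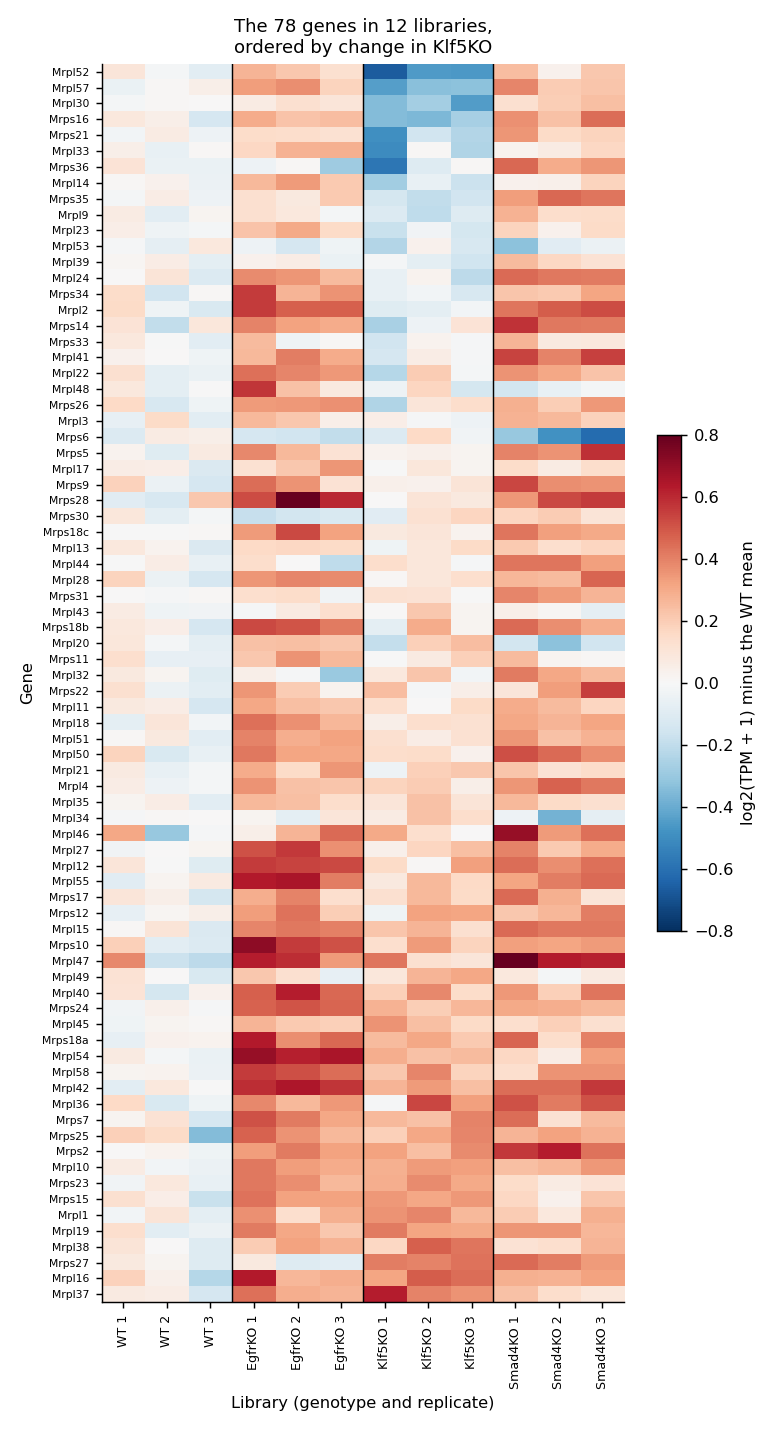
log2(TPM + 1) of each of the 78 genes minus its WT mean, in the deposited values of 12 libraries (columns), with genes in rows ordered by their change in Klf5KO from Mrpl52 (-0.53) to Mrpl37 (0.46). Most rows are above WT in the EgfrKO and Smad4KO columns, and the rows at the top are below it in the Klf5KO columns.

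The means of WT do not enter the contrasts between knockouts, although its libraries enter the shared estimate of the spread and the scaling. EgfrKO was above Klf5KO in 38 members and below it in 2 as deposited (14.7% and 40.5% of all genes), and in 60 and 1 after scaling (26.4% and 25.3%). The members' median difference was 0.20 as deposited, opposite in sign to the -0.16 of all genes, and 0.39 after scaling. Klf5KO was below Smad4KO in 39 members and above it in 6 as deposited (18.3% lower and 45.5% higher among all genes), and below it in 62 and above it in 0 after scaling (31.2% and 29.1%). At an unadjusted p under 0.05 the count above was 1. The members' median there was -0.20 as deposited, beside 0.21 for all genes, and -0.45 after scaling. The members' median kept its sign on both scales in these 2 contrasts. The 2 members lower in EgfrKO than in Klf5KO as deposited became 1 without EgfrKO replicate 1 or 2, or without Klf5KO replicate 2 or 3.

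Mrpl52 led these contrasts, 0.73 higher in EgfrKO than in Klf5KO (adjusted p = 1.31e-05) and 0.69 lower in Klf5KO than in Smad4KO (adjusted p = 9.4e-06). Mrpl57 differed by 0.66 (adjusted p = 2.5e-05) and -0.64 (adjusted p = 1.69e-05). Mrps16 was 0.67 lower in Klf5KO than in Smad4KO (adjusted p = 4.41e-06). Mrps28 was 0.60 higher in EgfrKO than in Klf5KO (adjusted p = 0.000515). Against the run of the members, Mrps27 was lower in EgfrKO than in Klf5KO by 0.45 (adjusted p = 0.000162), and Mrps30 by 0.22 (adjusted p = 0.0218). After scaling Mrps27 was still lower there, by 0.25 (adjusted p = 0.00405), and Mrps30 no longer differed in the test (-0.02, adjusted p = 0.895). In Klf5KO against Smad4KO the members higher in Klf5KO included Mrps6 (0.48, adjusted p = 0.000509), Mrpl34 (0.31, adjusted p = 0.00624) and Mrpl37 (0.31, adjusted p = 0.00766), and after scaling none of the 3 passed (adjusted p = 0.0504, 0.653 and 0.425).

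Of the 3 contrasts between knockouts, EgfrKO against Smad4KO had the fewest called members. As deposited 10 members were higher in EgfrKO and 7 lower (18.7% and 14.5% of all genes), with a median of 0.05 for the members and 0.04 for all genes. After scaling the counts were 6 and 12 (16.5% and 19.6%). Without EgfrKO replicate 1 or replicate 2 the deposited values gave 4 higher members, and without Smad4KO replicate 2 they gave 6. Mrpl54 measured 126.4, 120.1 and 122.6 TPM in EgfrKO and 87.0, 80.8 and 97.8 in Smad4KO, a difference of 0.47 (adjusted p = 0.000201). Mrpl20 and Mrpl48, of the large subunit, were also higher in EgfrKO, by 0.44 (adjusted p = 0.00562) and 0.37 (adjusted p = 0.0276). Mrps27 went the other way, at 27.1, 23.7 and 24.0 in EgfrKO and 35.4, 34.3 and 32.6 in Smad4KO, a difference of -0.44 (adjusted p = 0.000461). Mrpl44, a large subunit protein with an RNase III fold, was lower in EgfrKO by 0.42 (adjusted p = 0.00281). Mrps27 parted the genotypes into pairs in the deposited values, with WT and EgfrKO between 23.7 and 27.1 TPM and Klf5KO and Smad4KO between 32.6 and 35.4.

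**Figure D4:**
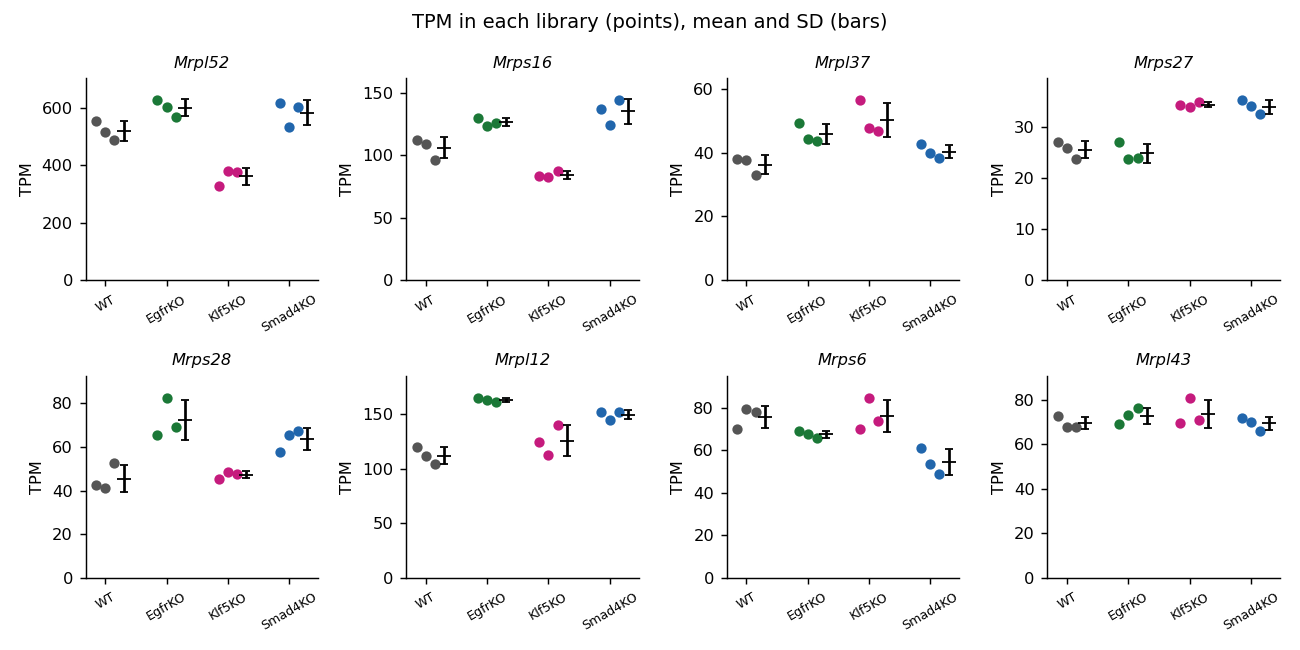
TPM of 8 of the 78 genes in each library (points, 3 a genotype) with mean ± SD (bars), on axes that start at 0. Mrpl52 and Mrps16 are lowest in Klf5KO, Mrps27 is highest in Klf5KO and Smad4KO (means 34.4 and 34.1) and lower in the other two (25.6 and 24.97), Mrps6 is lowest in Smad4KO, and Mrpl43 overlaps in all genotypes.

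By order of genotype means as deposited, WT was the lowest of the 4 in 48 members and Klf5KO in 20, while EgfrKO was the highest in 38 and Smad4KO in 28. After scaling Klf5KO was the lowest in 68 members and the highest in 0. This order was not counted over all genes, so it is not shown to be particular to the members. The median change of all genes as deposited was also above WT, by 0.14 in EgfrKO, 0.31 in Klf5KO and 0.10 in Smad4KO. The members with the narrowest range of genotype means were Mrpl43, Mrpl53 and Mrpl13, all of the large subunit. Mrpl43 measured 67.7 to 72.8 TPM in WT, 68.9 to 76.2 in EgfrKO, 69.5 to 80.9 in Klf5KO and 66.0 to 71.9 in Smad4KO. None of the contrasts passed for Mrpl43 as deposited, but after scaling it was 0.27 lower in Klf5KO than in WT (adjusted p = 0.0176).

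The members were then split by subunit, and the medians of the 2 subunits lay close to each other. In EgfrKO 36 of 51 large subunit members and 20 of 26 small subunit members rose, with medians of 0.27 and 0.33. In Smad4KO the counts were 34 and 20, with medians of 0.27 and 0.31. In Klf5KO 15 large subunit members rose and 5 fell, and 7 small subunit members rose and 3 fell, with medians of 0.10 and 0.08. After scaling 29 large and 14 small subunit members fell in Klf5KO. Of all genes tested, 31.3% rose in EgfrKO and 32.2% in Smad4KO as deposited. In Klf5KO 55.2% of all genes rose and 11.1% fell as deposited, and 27.5% fell after scaling. The ratio of the summed TPM of the large subunit to that of the small subunit does not depend on scaling, and was 2.39 to 2.44 in WT, 2.37 to 2.41 in EgfrKO, 2.33 to 2.38 in Klf5KO and 2.28 to 2.37 in Smad4KO. The ranges of Klf5KO and Smad4KO lay below that of WT by small amounts.

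By ancestry, 46 members have bacterial relatives and 31 are mitochondria-specific, with Mrps36 in neither class. Rises in EgfrKO were called for 37 and 19 of these, in Smad4KO for 34 and 20, and in Klf5KO for 11 and 11. Falls in Klf5KO were called for 5 and 3. After scaling Klf5KO had 0 rises and 26 and 17 falls in the 2 classes. By abundance, the 39 members at or above the members' median level had 7 rises and 7 falls in Klf5KO as deposited, and the 39 below it 15 rises and 1 fall. After scaling both classes had 0 rises, with 26 falls in the upper and 18 in the lower. Over all genes in Klf5KO 55.2% rose and 11.1% fell as deposited, and 24.6% and 27.5% after scaling. In EgfrKO 31.3% of all genes rose as deposited, and in Smad4KO 32.2%.

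Some members have known roles beyond a structural one. Mrpl58, a peptidyl-tRNA hydrolase built into the large subunit that can free stalled ribosomes, rose from 39.7 ± 1.21 TPM in WT to 56.8 ± 2.32 in EgfrKO (0.51, adjusted p = 0.000267). It was at 47.9 ± 3.90 in Klf5KO and 48.7 ± 4.35 in Smad4KO (0.26 and 0.29, adjusted p = 0.00844 and 0.00743, and -0.09 and 0.18 after scaling, neither past the threshold). Mrps12, at the decoding site of the small subunit, rose in EgfrKO and Smad4KO as deposited (0.32 and 0.30, adjusted p = 0.0196 and 0.024), and neither rise passed after scaling (adjusted p = 0.26 and 0.186).

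Mrps18a, Mrps18b and Mrps18c are relatives of a single bacterial protein, and Mrps18a sits in the large subunit while the others sit in the small one. Mrps18a and Mrps18b are counted above as mitochondria-specific and Mrps18c among the members with bacterial relatives. All 3 rose in EgfrKO (0.49, 0.48 and 0.40, adjusted p = 0.000954, 0.00162 and 0.00022) and in Smad4KO (0.34, 0.37 and 0.35, adjusted p = 0.00679, 0.00596 and 0.000309). In Klf5KO Mrps18a rose as deposited (0.26, adjusted p = 0.0203), whereas Mrps18b and Mrps18c were at 0.08 and 0.07 (adjusted p = 0.459 and 0.31). After scaling Mrps18a was at -0.10 (adjusted p = 0.413), and Mrps18b and Mrps18c fell by 0.27 and 0.29 (adjusted p = 0.038 and 0.00171).

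Mrps36 carries the name of a ribosomal protein but is known as a component of the 2-oxoglutarate dehydrogenase complex of the citric acid cycle. It measured 59.6, 53.2 and 53.3 TPM in WT, 53.8, 55.8 and 45.2 in EgfrKO, 36.7, 51.5 and 55.6 in Klf5KO and 76.4, 68.2 and 70.9 in Smad4KO. Smad4KO was above every other library, and 1 Klf5KO library stood below the rest. Against WT it rose in Smad4KO by 0.37 ± 0.132 (adjusted p = 0.0361), and the value after scaling was 0.26 (adjusted p = 0.153). EgfrKO was below Smad4KO by 0.47 (adjusted p = 0.0169). Reads of Mrps36, Mrpl23 and Mrpl48 may be shared with copies, since GENCODE names 3, 1 and 1 pseudogenes of them, so their values are less certain.

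Other groups of the same machinery, from lists chosen with earlier results of these data known, were also measured. For these lists the shares of all genes that rose and fell are 31.3% and 12% in EgfrKO, 55.2% and 11.1% in Klf5KO and 32.2% and 17.4% in Smad4KO as deposited, and 18% and 22.2%, 24.6% and 27.5%, and 25.1% and 24.7% after scaling. Of 17 mitochondrial translation factors and mRNA regulators, 13 rose in EgfrKO, 15 in Klf5KO and 12 in Smad4KO, with 1 fall, in Klf5KO. Their medians of 0.43, 0.41 and 0.42 stand beside 0.30, 0.09 and 0.29 for the ribosomal proteins and 0.14, 0.31 and 0.10 for all genes. After scaling 8, 4 and 9 of them rose, and in Klf5KO that share of 23.5% is near that of all genes. Tufm, the mitochondrial elongation factor that brings tRNA to the ribosome, went from 62.9 TPM in WT to 84.6 in Klf5KO (0.42, adjusted p = 1.04e-05, and 0.07 after scaling, adjusted p = 0.307). Taco1, an activator of translation of a cytochrome oxidase subunit, went from 8.33 to 17.3 (0.97, adjusted p = 5.15e-05), and its rise held after scaling (0.64, adjusted p = 0.00134). Slirp, which stabilises mitochondrial mRNA together with Lrpprc, was the factor that fell in Klf5KO, from 148.2 to 112.1 TPM (by 0.42, adjusted p = 0.0152), whereas Lrpprc rose from 17.5 to 27.5 (0.62, adjusted p = 2.29e-05).

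Of 26 tested genes of mitochondrial ribosome assembly and rRNA modification, 13, 16 and 16 rose in EgfrKO, Klf5KO and Smad4KO, and 0, 2 and 1 fell. The 61.5% that rose in Klf5KO is close to the share of all genes. Those that fell in Klf5KO were Malsu1 (by 0.29, adjusted p = 0.0134), which guards the large subunit from joining early, and Gtpbp10 (by 0.25, adjusted p = 0.0384), a GTPase of large subunit assembly. After scaling 5, 1 and 11 assembly genes rose and 1, 5 and 1 fell. Of 17 mitochondrial aminoacyl-tRNA synthetases, which charge mitochondrial tRNAs, 9, 12 and 13 rose and 1, 0 and 0 fell as deposited, and after scaling 6, 1 and 10 rose and 1, 2 and 0 fell. The synthetase that fell in EgfrKO was Lars2, from 670.8 ± 48.6 to 502.5 ± 154.1 TPM (SD, n = 3). Its fall of 0.46 was near the threshold (adjusted p = 0.0496), and its groups overlapped. Of 5 tested ribosomal proteins with other names, 2, 2 and 3 rose and 0, 1 and 1 fell as deposited, and 1, 0 and 1 rose and 0, 3 and 1 fell after scaling. Ptcd3 (0.23, adjusted p = 0.0241) and Gadd45gip1 (0.18, adjusted p = 0.0427) rose in Klf5KO as deposited. After scaling they were at -0.12 and -0.17 there (adjusted p = 0.105 and 0.123). Aurkaip1 fell in Smad4KO (by 0.14, adjusted p = 0.0103), and by 0.25 after scaling (adjusted p = 0.003). Chchd1, a small subunit protein, fell in Klf5KO from 112.7 to 88.5 TPM (by 0.35, adjusted p = 0.00286) and rose in Smad4KO to 139.8 (0.31, adjusted p = 0.00799). After scaling its fall was 0.70 (adjusted p = 9.11e-05), and its rise of 0.20 did not pass (adjusted p = 0.0868). Of 9 tested genes of mitochondrial DNA replication and transcription, 5, 7 and 5 rose and 0, 0 and 1 fell, and after scaling 2, 1 and 0 rose and 0, 1 and 1 fell.

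Of 9 nuclear regulators, 2, 4 and 2 rose and 1, 1 and 2 fell as deposited, and after scaling 1, 2 and 2 rose and 6, 3 and 5 fell. Myc fell in Klf5KO from 88.4 ± 0.938 to 64.4 ± 6.07 TPM (by 0.46, adjusted p = 0.00011, and by 0.81 after scaling). In EgfrKO Myc fell by 0.29 (adjusted p = 0.00495), and by 0.44 after scaling. The part of Myc in the members' values was not tested. Nrf1, Gabpa, Gabpb1 and Yy1, for the factors NRF1, GABP and YY1, did not pass in EgfrKO as deposited. After scaling they fell there, at -0.30, -0.245, -0.29 and -0.25 (adjusted p = 0.00097, 0.00315, 0.0101 and 0.00405). In Klf5KO they were at 0.36, 0.40, 0.19 and 0.09 as deposited (adjusted p = 0.000371, 0.00069, 0.0646 and 0.259). After scaling Yy1 alone of them passed there, at -0.265 (adjusted p = 0.00187). Their part was not tested either. Ppargc1b, a coactivator of mitochondrial genes, went from 0.561 TPM in WT to 1.95 in EgfrKO (0.93, adjusted p = 0.000579) and 5.56 in Smad4KO (2.08, adjusted p = 7.01e-07), and was at 0.355 in Klf5KO (-0.19, adjusted p = 0.28). After scaling the same contrasts gave 0.87, 2.06 and -0.29. Mean Ppargc1b was under 1 TPM in WT and Klf5KO. Ppargc1a and Pprc1, of the same list, rose in Klf5KO by 0.90 and 0.66 (adjusted p = 0.000225 and 6.37e-06). After scaling these rises were 0.67 and 0.31. In EgfrKO the 2 genes were at -0.30 and 0.18 (adjusted p = 0.112 and 0.0381). In Smad4KO they were at -0.675 and -0.06 (adjusted p = 0.00249 and 0.453). Mean Ppargc1a was under 1 TPM in EgfrKO and Smad4KO.

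The members were also set against 2 larger groups whose products they serve or resemble. Nuclear genes of oxidative phosphorylation, 78 of them tested, had 48 rises and 1 fall in EgfrKO, 10 and 25 in Klf5KO and 58 and 0 in Smad4KO as deposited. After scaling the counts were 15 and 3, 0 and 67, and 45 and 0. Of all genes tested, 31.3% rose and 12% fell in EgfrKO, 55.2% and 11.1% in Klf5KO and 32.2% and 17.4% in Smad4KO as deposited. After scaling these shares were 18% and 22.2%, 24.6% and 27.5%, and 25.1% and 24.7%. The ratio of the members' summed TPM to that of the oxidative phosphorylation genes was 0.248 to 0.255 in WT, 0.258 to 0.264 in EgfrKO, 0.266 to 0.278 in Klf5KO and 0.223 to 0.234 in Smad4KO. The 4 ranges did not overlap, with Smad4KO lowest. Cytosolic ribosomal protein genes, 82 of them tested, had 2 rises and 77 falls in Klf5KO with a median of -0.57, where the members' median was 0.09, and 2 rises and 78 falls after scaling. The ratio of the members' summed TPM to that of the cytosolic genes was 0.0232 to 0.0250 in WT, 0.0301 to 0.0311 in EgfrKO, 0.0360 to 0.0366 in Klf5KO and 0.0302 to 0.0312 in Smad4KO. Every knockout library was above every WT library in this ratio, which does not depend on scaling.

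Many members are arranged head to head with another gene. An opposite-strand protein-coding gene started within 1000 bases in 33 of 78 members (42.3%), against 2028 of 12488 protein-coding genes tested (16.2%), by GENCODE starts on GRCm38. In 30 pairs with a tested neighbour outside the members, the member changed more in the positive direction than its neighbour in 18 pairs in EgfrKO, 6 in Klf5KO and 21 in Smad4KO. Medians in Klf5KO were 0.10 for the members and 0.36 for the neighbours. In EgfrKO they were 0.33 and 0.24, and in Smad4KO 0.29 and 0.19.

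The pair of Mrpl49 and Fau, in which the neighbour is a cytosolic ribosomal gene, is given in full. Fau encodes a protein of the cytosolic small ribosomal subunit. The 191 bases between their RefSeq starts, on the strand of Mrpl49 (chr19:6057756-6057946, minus strand, GRCm38.p6), hold none of the 5 motifs searched and are shown in lower case throughout:
Mrpl49: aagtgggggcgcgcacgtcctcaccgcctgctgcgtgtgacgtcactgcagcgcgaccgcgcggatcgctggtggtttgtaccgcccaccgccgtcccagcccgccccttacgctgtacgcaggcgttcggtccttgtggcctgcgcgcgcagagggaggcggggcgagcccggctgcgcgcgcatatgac
Fau measured 4148, 4099 and 4494 TPM in WT and 2284, 2638 and 2620 in Klf5KO, a fall of 0.76 (adjusted p = 5.38e-06). Mrpl49 measured 43.9, 40.6 and 37.1 in WT and 43.2, 48.9 and 50.4 in Klf5KO, a rise of 0.22 ± 0.087 (adjusted p = 0.0389) with overlapping groups, and after scaling a difference of -0.13 (adjusted p = 0.258). Fau was lower in every Klf5KO library, while Mrpl49 moved little on either scale.

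**Figure D5:**
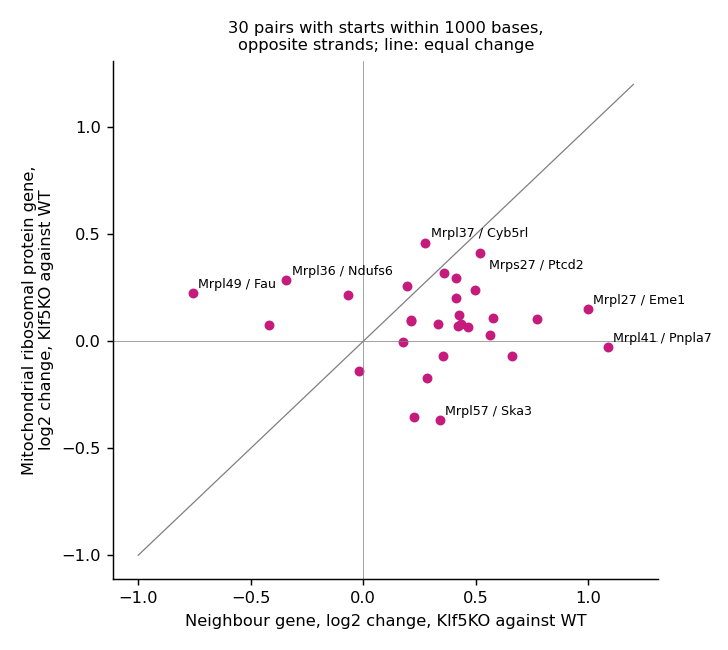
Change in Klf5KO against WT on the log2(TPM + 1) scale of 30 mitochondrial ribosomal protein genes (vertical) and of the gene that starts within 1000 bases on the opposite strand (horizontal), with the line of equal change. In 6 pairs the member lies above the line, among them Mrpl49 with Fau (0.22 against -0.76), and Mrpl41 with Pnpla7 lies farthest below it (-0.03 against 1.09).

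Transcript length is another property in which the members differ from other genes. Length was that of the protein-coding transcript with the best APPRIS principal rank in GENCODE, and the longest of these where several tied. The members had a median of 1302 bases (418 to 7300), against 2914 for 12491 tested genes with a GENCODE entry. In Klf5KO the change of all genes correlated with length across genes (Spearman rho = 0.365, Pearson r = 0.293, n = 12491), where genes share libraries and are not independent. Among the members rho was 0.192 and r 0.204 (n = 78). Among all genes shorter than 1026 bases the median change in Klf5KO was -0.09, between that and 1886 bases it was 0.14, and above it 0.39. The members in the same length classes had medians of 0.06, 0.10 and 0.10, above all genes in the shortest class and below them in the middle and longest. The longest class of all genes held 9228 genes and ran up to 123179 bases, so lengths within a class were not matched. In EgfrKO and Smad4KO the members' medians exceeded those of all genes in each class, at 0.33, 0.28 and 0.28 against 0.16, 0.18 and 0.12 and at 0.27, 0.31 and 0.28 against 0.07, 0.12 and 0.10. The part of transcript length in the Klf5KO result was not tested.

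The members were last split by promoter motif. In Klf5KO the 8 members with the YY1 motif had a median change of 0.27, against 0.08 for the 61 without it. The 13 with the NRF1 motif were at 0.00, against 0.11 for the 56 without it, and the 26 with the ETS motif at 0.07, against 0.11. In EgfrKO the medians with and without the ETS motif were 0.28 and 0.31. These values describe the members and were not tested.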

How the data were processed

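The deposited values are TPM by gene symbol, made by the authors with Salmon on the mm10 build, per the submitters' processing notes. The version of Salmon and the annotation are not given in the sources used. TPM keep no read depth, so depth is unknown and no counting interval is given.

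Values were taken as log2(TPM + 1), on which the change of low genes is understated. A gene was kept if 3 or more libraries had a TPM of 1 or more. A single model of 4 genotype means over 12 libraries was fitted with limma 3.58.1 (R 4.3.3), with moderated variances that follow the mean level, and tested on simulated data. Two-sided p-values of each of 6 contrasts received the Benjamini-Hochberg adjustment over 13662 genes, with a threshold of 0.05. Scaling used medians of ratios over genes above 0 in every library (mean size factors 0.905, 1.01, 1.16 and 0.976 for WT, EgfrKO, Klf5KO and Smad4KO).

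The members and gene lists were chosen with earlier results of these data known. Members named were the 5 largest called changes a direction against WT and the 3 largest between knockouts, where groups did not overlap, the most and least abundant, the flattest and those with known separate roles. Mrpl49, Fau and the listed genes outside the ribosome other than Myc were chosen after their values were seen. Coordinates and promoters came from RefSeq (GRCm38.p6) and lengths, pseudogenes and neighbours from GENCODE on GRCm38. Alternatives were another pseudocount, other filters and scalings, leaving out cytosolic ribosomal protein genes or the 20 most abundant genes, no trend, a fit of 2 groups, a replicate block and leaving out each library.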

Additional observations from a re-analysis of the deposited data

How the results depend on the processing

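Scaling was the choice that moved the members most. Beside the values given above, median-of-ratios scaling gave 23 rises, 6 falls and a median of 0.15 in EgfrKO against WT, 0, 44 and -0.26 in Klf5KO and 29 rises and 0.18 in Smad4KO. Between knockouts it gave 60, 1 and 0.39 for EgfrKO against Klf5KO, 6 and 12 for EgfrKO against Smad4KO, and 0, 62 and -0.45 for Klf5KO against Smad4KO. Quantile normalization gave 31, 2 and 0.19 in EgfrKO, 0, 33 and -0.18 in Klf5KO, 33 rises and 0.20 in Smad4KO, 59, 1 and 0.38 for EgfrKO against Klf5KO and 2, 60 and -0.36 for Klf5KO against Smad4KO. Of all 13662 genes it gave 2525 rises and 2745 falls in EgfrKO, 3708 and 3175 in Klf5KO and 3178 and 3497 in Smad4KO. For EgfrKO against Klf5KO these counts were 3306 and 3913, and for Klf5KO against Smad4KO 4588 and 3770. Size factors over the tested genes only, an alternative chosen after seeing the data, gave 26, 5 and 0.15 in EgfrKO, 0, 44 and -0.25 in Klf5KO, 29, 4 and 0.18 in Smad4KO, 60, 1 and 0.39 for EgfrKO against Klf5KO, 6 and 12 for EgfrKO against Smad4KO, and 1, 62 and -0.44 for Klf5KO against Smad4KO. Over all 13662 genes the rises and falls here were 2485 and 3023, 3397 and 3731, and 3382 and 3441 against WT. Between knockouts they were 3603 and 3492, 2337 and 2594, and 4056 and 4211 in the same order. With cytosolic ribosomal protein genes left out and TPM rescaled, Klf5KO against WT gave 12 rises, 14 falls and a median of -0.022, EgfrKO against Klf5KO 1 fall and 0.30, and Klf5KO against Smad4KO 3 rises and -0.29. Of 13580 genes then tested, 6065 rose and 1904 fell in Klf5KO against WT. In EgfrKO against Klf5KO 4365 of them fell, and in Klf5KO against Smad4KO 5309 rose. With no filter on low values the members' median minus that of all genes was 0.23 in EgfrKO, -0.063 in Klf5KO, 0.26 in Smad4KO, 0.26 for EgfrKO against Klf5KO and -0.29 for Klf5KO against Smad4KO. Leaving out the 20 most abundant genes gave 11 falls for EgfrKO against Smad4KO, where 2156 of all 13642 genes fell. A fit of the 2 groups compared gave 2 falls in Smad4KO against WT and 1 for EgfrKO against Klf5KO. Of all 13662 genes 2264 and 5241 fell there. The other alternatives kept these counts within 1.5 times.

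In Klf5KO against WT, 35 values of named members changed sign with at least 1 of the 2 values past the threshold. Median-of-ratios scaling gave -0.29 for Mrpl13, -0.28 for Mrpl17, -0.071 for Mrpl42, -0.27 for Mrpl43, -0.27 for Mrpl44, -0.095 for Mrpl54, -0.088 for Mrpl58, -0.14 for Mrps10, -0.097 for Mrps18a, -0.27 for Mrps18b, -0.29 for Mrps18c, -0.024 for Mrps2, -0.28 for Mrps30 and -0.35 for Mrps6. Size factors over the tested genes gave -0.28, -0.28, -0.067, -0.27, -0.27, -0.091, -0.084, -0.13, -0.093, -0.27, -0.28, -0.02, -0.28 and -0.34 for the same genes in that order. Quantile normalization gave -0.32 for Mrpl17, -0.027 for Mrpl19, -0.26 for Mrpl44, -0.037 for Mrpl58, -0.054 for Mrps10, -0.043 for Mrps2 and -0.23 for Mrps30. The cause was not tested.

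Leaving out 1 library at a time, EgfrKO against Smad4KO gave 4 to 11 rises (4 without EgfrKO replicate 1 or 2), EgfrKO against Klf5KO 1 to 2 falls, and EgfrKO and Smad4KO against WT 0 to 1 and 1 to 2 falls. After scaling, also run after seeing the data, rises in Smad4KO ran from 19 (without Smad4KO replicate 3) to 35, falls in Klf5KO from 29 (without WT replicate 1) to 45, and falls in EgfrKO and Smad4KO from 1 to 6 and 1 to 4. Calls over all genes were not counted for the fits without 1 library, so these counts have no background beside them. Deviations of same-numbered libraries of different genotypes had correlations of -0.149 to 0.116, over 0.1 in 1 of 18 pairs. Differently numbered libraries had -0.129 to 0.169, over 0.1 in 2 of 36. No effect shared by replicate number was visible, and the labels do not say whether libraries were paired. With the replicate block the rises in EgfrKO, Klf5KO and Smad4KO were 51, 20 and 50, and the falls 0, 9 and 1. Over all 13662 genes the rises were 4211, 7493 and 4338, and the falls 1586, 1515 and 2289. Read depth is unknown, and with 3 libraries a group small changes are often missed.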
